A study of Mus musculus with 3 samples.

Results

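The genes described here are 9 genes of the complement system, namely C1qa, C1qb, C1qc, C3, C4b, Cfb, Cfd, Cfp and C3ar1. They were chosen by name, through the RefSeq transcript to which each array probe is assigned, out of 22911 genes named on the array. In all, 14 of the 56605 non-control probes target them, with 2 probes for each of 5 genes and 1 probe for each of 4. RNA came from splenic tumours of 3 male mice aged 10 weeks and was labelled with Cy3 for 1-colour Agilent arrays, 1 array per tumour. Of these tumours, 2 had the genotype LSD1 × p53+/−, numbered 2 and 3 in the labels and called LSD1 tumour 2 and LSD1 tumour 3 below, and 1 had the genotype p53+/−, called the p53 tumour. All 3 animals were thus p53-haploinsufficient. What the LSD1 element is, which promoter or cell type drives it, and whether a number marks an animal or a line are not given in the sources used here, and no pooling is stated.

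A scaled signal below is the background-subtracted intensity divided by the 75th percentile of its array, which was 712 in LSD1 tumour 2, 554 in LSD1 tumour 3 and 608 in the p53 tumour. Between 51.5% and 55.6% of non-control spots were well above background, and no spot was saturated. Slide 1 and scan 1 held both the p53 tumour and LSD1 tumour 3, while slide 2 and scan 2 held LSD1 tumour 2. Every difference of LSD1 tumour 2 from either other tumour is therefore also one of slide and scan, and these cannot be told apart. The median SD among 10 spots of the same probe was between 0.039 and 0.041 log2 units on the 3 arrays, which measures error within an array only. The 5 markers kept for the tissue label were above background on all 3 arrays, among them the spleen transcription factor genes Nkx2-5 and Tlx1. The tissue label reads splenic tumour, while 1 protocol speaks of isolated splenic cells, so which was used is not settled. In either case the RNA is of mixed cells, so fewer cells of a type and less RNA per cell cannot be told apart. With 2 tumours against 1, an exact permutation of the tumours cannot give a p below 0.333.

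Complement is a cascade of plasma and tissue proteins that tags microbes, immune complexes and dying cells. C1q, built from the A, B and C chains that C1qa, C1qb and C1qc encode, opens the classical pathway, in which C4 and C2 are cut to form an enzyme that cleaves C3. The alternative pathway builds a like enzyme from C3b and factor B (Cfb) with the help of the protease factor D (Cfd), and properdin (Cfp) stabilises it. C3ar1 encodes the receptor for the fragment C3a. Macrophages and dendritic cells make most C1q, the liver makes most plasma C3, C4 and factor B, adipocytes make much of the factor D, and myeloid cells store properdin. In the spleen, C3 fragments bound to antigen engage complement receptors on B cells and follicular dendritic cells.

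The sequences upstream of 3 of these genes are shown, picked with the results known. C1qb and C1qc were both brightest in LSD1 tumour 3, and C3 was above the p53 tumour in one LSD1 tumour and below it in the other. RefSeq sequences of assembly GRCm38.p6 were given for 6 of the 9 genes, and C1qa, C4b and Cfb are named only. Each is the 250 bases before the annotated start, 5′ to 3′ on the gene's strand. Capitals mark matches, on either strand, to the MAF motif TGCTGA, the PU.1 core GAGGAA, the C/EBP motif TTGCNNAA or the STAT motif TTCNNNGAA.
C1qb, chr4:136886201-136886450, minus strand: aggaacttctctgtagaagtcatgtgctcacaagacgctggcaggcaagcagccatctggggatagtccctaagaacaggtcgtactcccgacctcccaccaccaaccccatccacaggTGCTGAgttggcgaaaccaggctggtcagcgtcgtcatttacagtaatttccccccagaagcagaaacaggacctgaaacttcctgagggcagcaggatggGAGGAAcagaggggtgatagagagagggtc
C1qc, chr4:136892915-136893164, minus strand: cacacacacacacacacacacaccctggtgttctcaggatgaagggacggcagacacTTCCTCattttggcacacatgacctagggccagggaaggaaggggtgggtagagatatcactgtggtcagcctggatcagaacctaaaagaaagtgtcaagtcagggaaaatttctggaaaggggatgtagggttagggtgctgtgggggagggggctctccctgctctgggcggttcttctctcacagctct
C3, chr17:57228137-57228386, minus strand: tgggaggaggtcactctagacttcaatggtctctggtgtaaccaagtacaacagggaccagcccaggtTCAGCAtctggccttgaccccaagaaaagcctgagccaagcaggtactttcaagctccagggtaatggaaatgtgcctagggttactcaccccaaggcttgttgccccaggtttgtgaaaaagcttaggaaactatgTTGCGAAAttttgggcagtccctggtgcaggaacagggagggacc

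C1qb held 1 match to the MAF motif, 131 bases before the start, and 1 to the PU.1 core, 30 bases before it. C1qc held 1 match to the PU.1 core, on the other strand, and C3 held 1 to the MAF motif, on the other strand, and 1 to the C/EBP motif, 45 bases before the start. None of the 3 windows held the STAT motif. Of the windows not shown, those of Cfd and Cfp held no match to any of the motifs, and that of C3ar1 held 1 to the MAF motif. Over all 32851 windows of the same length, 16.1% held the MAF motif, 23.3% the PU.1 core, 9.56% the C/EBP motif and 7.02% the STAT motif. These matches are letters in a window and were not tested as binding sites. C1qb, C1qc and C1qa lie side by side on chromosome 4, with 0 other protein-coding genes between neighbours in that annotation.

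LSD1 tumour 3 had more C1q transcript than the p53 tumour, and LSD1 tumour 2 lay close to the p53 tumour. C1qa had scaled signals of 8.49 and 13.4 in LSD1 tumours 2 and 3, against 8.44 in the p53 tumour. C1qb had 7.01 and 14.4 in LSD1 tumours 2 and 3, against 6.17 in the p53 tumour. C1qc had 18.1 and 29.7 in LSD1 tumours 2 and 3, against 20.3 in the p53 tumour. All 3 genes were brightest in LSD1 tumour 3, and LSD1 tumour 2 stood above the p53 tumour for C1qa and C1qb and below it for C1qc. The order of C1qa and C1qb was held by 23.6% of all genes above background on all 3 arrays, and that of C1qc by 20%. Being brightest in LSD1 tumour 3 is thus common among all genes, whose median difference there was 0.16 log2. In LSD1 tumour 3 the excess over the p53 tumour was 1.59-fold for C1qa, 2.33-fold for C1qb and 1.47-fold for C1qc. It kept its sign in that tumour with normexp background correction, with quantile normalization and in the authors' deposited value table. The settings that change the filter or average a gene's probes cannot change the difference of a gene with 1 probe. For C1qc the excess was as small as 0.06 log2 units, with quantile normalization. For C1qb it dropped under 2-fold both there (0.82 log2) and in the authors' deposited value table (0.85). In LSD1 tumour 2 the C1q differences from the p53 tumour lay between -0.16 and 0.18 log2 units, and those of C1qa and C1qb turned negative in the authors' deposited value table, at -0.21 and -0.03 log2, as did C1qa with quantile normalization. LSD1 tumour 3 exceeded LSD1 tumour 2 by 1.58-fold for C1qa, 2.05-fold for C1qb and 1.64-fold for C1qc.

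**Figure D1:**
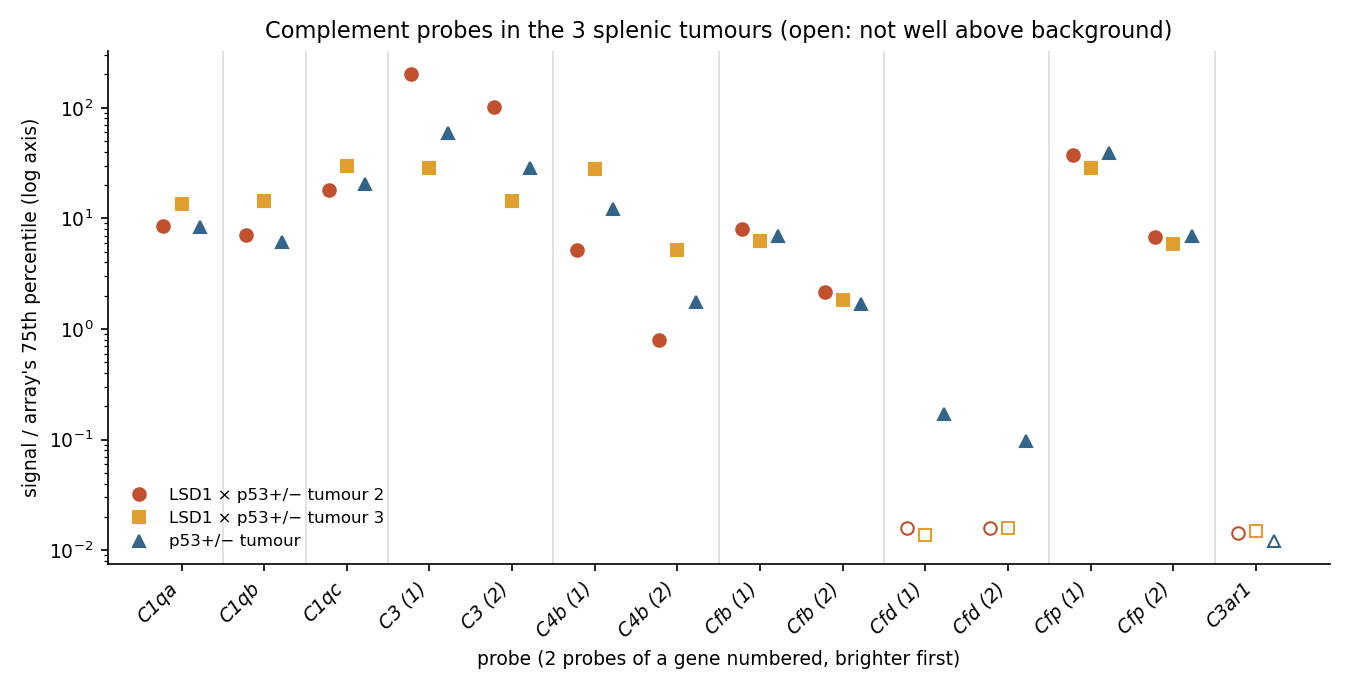
Scaled signal (intensity over the array's 75th percentile, log axis) of each of the 14 probes of the 9 complement genes, with 1 point per tumour and open points where the probe was not well above background. C3 and C4b spread widest among genes measured in all 3 tumours, only the p53 tumour had Cfd above background, and no tumour had C3ar1.

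Macrophages are a main source of C1q, and markers of their splenic subsets did not move as a block. The 17 macrophage markers had medians of -0.26 log2 in LSD1 tumour 2 and -0.09 in LSD1 tumour 3 relative to the p53 tumour, and their summed scaled signal was 330, 409 and 399 in LSD1 tumour 2, LSD1 tumour 3 and the p53 tumour. By the rule for named genes, the marginal zone and resident macrophage genes Siglec1, Timd4 and Marco are given. Marco, a scavenger receptor of marginal zone macrophages, was at 62.7 and 8.28 in LSD1 tumours 2 and 3, against 61.5 in the p53 tumour. Cd5l, Spic and Hmox1, genes of red pulp macrophages, were picked after their values were seen, and Vcam1, also a gene of that subset, was at -0.30 log2 in LSD1 tumour 2 and -0.62 in LSD1 tumour 3. Cd5l, a secreted macrophage protein, stood at 13.6 and 87.0 in LSD1 tumours 2 and 3, against 28.7 in the p53 tumour. Spic, the transcription factor of red pulp macrophages, stood at 10.2 and 28.6 in LSD1 tumours 2 and 3, against 16.5 in the p53 tumour. Hmox1, the haem oxygenase, stood at 22.9 and 79.5 in LSD1 tumours 2 and 3, against 49.6 in the p53 tumour. These 3 genes shared with C1qa, C1qb and C1qc the highest value in LSD1 tumour 3, and they were lowest in LSD1 tumour 2. In LSD1 tumour 3, 5 of the 17 markers lay above the p53 tumour and 12 below it, among the latter Cd163 at -1.37 log2. Of the 16 markers above background on all 3 arrays, 4 had the order of C1qc, with LSD1 tumour 3 highest and LSD1 tumour 2 lowest (25%, against 20% of all genes above background on all 3), and 1 had the order of C1qa and C1qb (6.25%, against 23.6%). Other macrophage genes varied in LSD1 tumour 3, where Csf1r was at -0.07 and Adgre1 at -0.09 log2 from the p53 tumour. Cd68 was at 0.34 and Lgals3 at 0.89 log2 there, and Mertk was at -0.39 and Apoe at -0.74. In LSD1 tumour 2, Adgre1, a surface receptor gene of mature macrophages, was 3.04-fold below the p53 tumour. Siglec1 was not well above background in LSD1 tumour 3, at least 8.96-fold below the p53 tumour, and Timd4 was 15.4-fold lower there. In LSD1 tumour 2 both were above the p53 tumour, Siglec1 by 1.49-fold and Timd4 by 2.15-fold. The part of macrophage number in the C1q values was not tested.

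**Figure D2:**
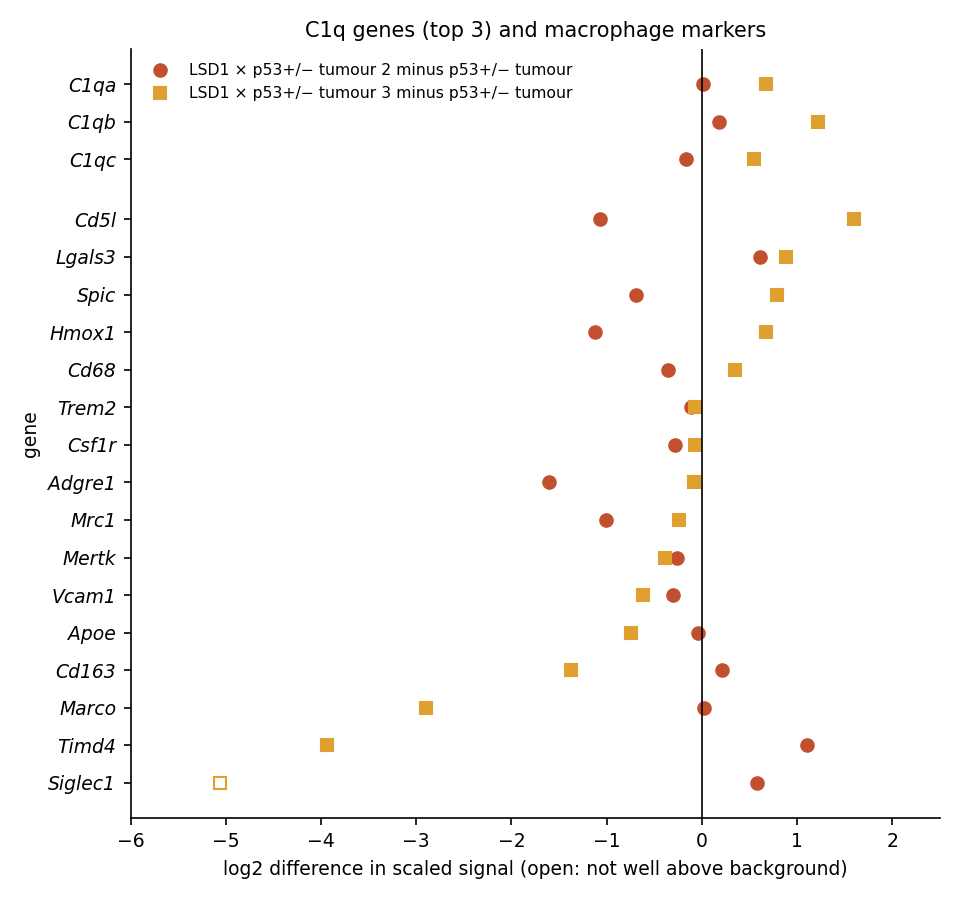
Log2 difference in scaled signal of LSD1 tumour 2 (circles) and LSD1 tumour 3 (squares) from the p53 tumour, for the 3 C1q genes and the macrophage markers drawn, ordered by LSD1 tumour 3, with an open point where the probe was not well above background. C1qa, C1qb, C1qc, Cd5l, Lgals3, Spic, Hmox1 and Cd68 lie right of 0 in LSD1 tumour 3, while Marco, Timd4 and Siglec1 lie far left of it.

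Likeness to the C1q pattern rests on 2 differences per gene. Among 12809 other genes above background on all 3 arrays, the 5 whose pair of log2 differences lay nearest to the median C1q pair (0.01 in LSD1 tumour 2 and 0.67 in LSD1 tumour 3) were Fam122b, H2ac22, Tmem183a, Mcrs1 and Sec23ip, at Euclidean distances between 0.010 and 0.014. C1qb itself lay 0.57 from that median, and 24.8% of the genes compared lay at least as near.

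C3, the component on which all complement pathways converge, differed in opposite directions in the LSD1 tumours. Its brighter probe read 202 (scaled signal) for LSD1 tumour 2 and 28.6 for LSD1 tumour 3, against 59.3 in the p53 tumour. Its other probe read 102 in LSD1 tumour 2 and 14.4 in LSD1 tumour 3, against 28.5 in the p53 tumour. Both probes put LSD1 tumour 2 highest and LSD1 tumour 3 lowest, so the p53 tumour lay between the LSD1 tumours. Relative to the p53 tumour, the brighter C3 probe was 3.40-fold higher for LSD1 tumour 2 and 2.07-fold lower for LSD1 tumour 3. The probes differed from each other by 0.08 log2 in the first of these differences and by 0.07 in the second. The C3 level of LSD1 tumour 2 was 7.04-fold that of LSD1 tumour 3 by the brighter probe and 7.09-fold by the other.

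Markers of other cells differed in how far they shared the order of C3, in which LSD1 tumour 2 was highest and LSD1 tumour 3 lowest, an order held by 12.9% of all genes above background on all 3 arrays. Among 8 markers of liver cells, the main source of plasma C3, Alb, Apoa1, Ttr, Fgb and Ahsg were not well above background on any array, while Serpina1a, Apoc3 and Hp were above it on all 3. Serpina1a, which encodes the protease inhibitor alpha-1 antitrypsin, had 1.47 and 0.478 in LSD1 tumours 2 and 3, against 1.44 in the p53 tumour, the order of C3. The summed scaled signal of the 8 genes was 6.79, 6.36 and 6.48 in LSD1 tumour 2, LSD1 tumour 3 and the p53 tumour.

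The 7 T cell markers summed to 185 and 24.2 in LSD1 tumours 2 and 3, against 56.8 in the p53 tumour, and 6 of the 7 had the order of C3. The exception was Cd8a, the CD8 coreceptor gene and the T cell marker with the largest mean difference, at 0.134 and 0.388 in LSD1 tumours 2 and 3, against 1.48 in the p53 tumour. The 9 monocyte markers summed to 69.5, 82.4 and 74.1 in LSD1 tumour 2, LSD1 tumour 3 and the p53 tumour. Of the 8 above background on all 3 arrays, 1, the fibronectin gene Fn1, had the order of C3, and 3, Ly6c2, F13a1 and Treml4, had the reverse order. The 9 stromal markers summed to 15.1 and 10.9 in LSD1 tumours 2 and 3, against 30 in the p53 tumour, with Lum above background on no array and 2 of the other 8 genes in the order of C3. The part of liver cells, T cells, monocytes and stroma in the C3 values was not tested.

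C4b, which encodes complement C4 of the classical pathway, ran the other way. Its brighter probe read 5.17 (scaled signal) for LSD1 tumour 2 and 28.0 for LSD1 tumour 3, against 12.1 in the p53 tumour. Its other probe read 0.799 in LSD1 tumour 2 and 5.17 in LSD1 tumour 3, against 1.76 in the p53 tumour. LSD1 tumour 3 was highest and LSD1 tumour 2 lowest on both probes, and the p53 tumour again lay between them. Relative to the p53 tumour, the brighter C4b probe was 2.35-fold lower for LSD1 tumour 2 and 2.31-fold higher for LSD1 tumour 3. The other probe gave 2.21-fold lower and 2.94-fold higher. In LSD1 tumour 3 the excess was smaller with quantile normalization, at 0.74 log2, and in the authors' deposited value table, at 0.84, both under 2-fold. C4a, the sex-limited protein gene and a close copy of C4b, had 0.169 and 1.04 in LSD1 tumours 2 and 3, against 0.355 in the p53 tumour, the same order. Transcripts of such copies can bind each other's probes, so C4a and C4b are not separated here. The 7 erythroid markers summed to 417 and 711 in LSD1 tumours 2 and 3, against 549 in the p53 tumour, a sum that is mostly the globin gene Hbb-bt. The order of C4b was shared by 6 of the 7 genes, against 20% of all genes above background on all 3 arrays. The exception was Tfrc, the transferrin receptor gene, at 11.2 and 19.3 in LSD1 tumours 2 and 3, against 6.15 in the p53 tumour. Among markers above background on all 3 arrays, the order of C4b was held by 4 of 16 for macrophages and 3 of 8 for monocytes. It was held by 0 of 8 for stroma and 0 of 3 for liver cells. The part of erythroid cells, or of any of these cells, in the C4b values was not tested.

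**Figure D3:**
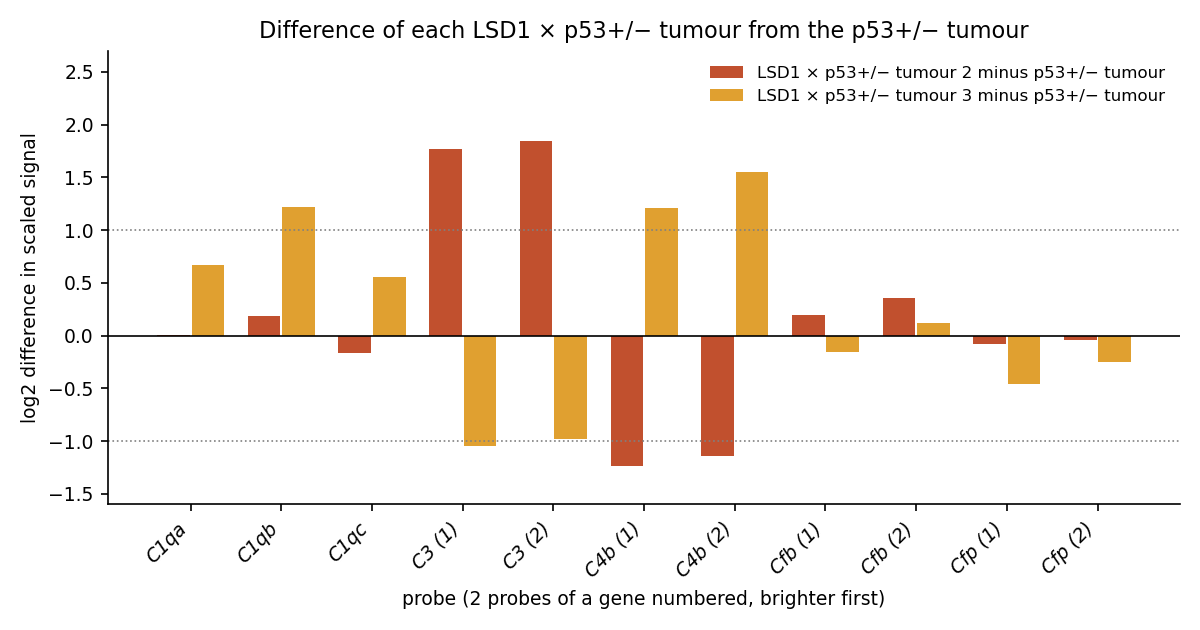
Log2 difference of LSD1 tumour 2 and LSD1 tumour 3 from the p53 tumour for the 11 complement probes above background on all 3 arrays, with dotted lines at 2-fold. Both C3 probes are positive in LSD1 tumour 2 and negative in LSD1 tumour 3, and both C4b probes are the reverse.

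Of the other alternative pathway genes, Cfb and Cfp differed by less than 2-fold among the tumours. Cfb had scaled signals of 7.98 and 6.27 in LSD1 tumours 2 and 3, against 6.99 in the p53 tumour, by its brighter probe. Its other probe read 2.18 and 1.85 in LSD1 tumours 2 and 3, against 1.70 in the p53 tumour, so the probes gave opposite signs for LSD1 tumour 3 (-0.16 and 0.12 log2). Cfb is separated from C2 by 0 protein-coding genes on chromosome 17, and C2, its classical pathway counterpart, was at -0.70 log2 in LSD1 tumour 2 and -0.56 in LSD1 tumour 3. Cfp, on chromosome X, had 37.1 and 28.4 in LSD1 tumours 2 and 3, against 39.1 in the p53 tumour, and 6.81 and 5.88 in the LSD1 tumours, against 7.0 in the p53 tumour, by its other probe. The p53 tumour was highest for Cfp on both probes, by between 1.03-fold and 1.38-fold. In LSD1 tumour 3 the Cfp difference was larger with quantile normalization, at -0.95 log2, and in the authors' deposited value table, at -0.83. Cfb in that tumour was at -0.52 log2 under both settings. Neutrophil markers, from cells that store properdin, summed to 301 and 275 in LSD1 tumours 2 and 3, against 151 in the p53 tumour, a sum that is mostly S100a8 and S100a9. The order of Cfp, with the p53 tumour highest and LSD1 tumour 3 lowest, was shared by 1 of the 10 genes, the chemokine receptor gene Cxcr2, and by 12.5% of all genes above background on all 3 arrays. The part of neutrophils in the Cfp values was not tested.

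Cfd, encoding factor D (adipsin), was detected in the p53 tumour alone. Its brighter probe was not well above background at 0.016 in LSD1 tumour 2 and 0.014 in LSD1 tumour 3, against a scaled signal of 0.171 in the p53 tumour. Its other probe was likewise at background in both LSD1 tumours, at 0.016 in each, against 0.097 in the p53 tumour. As bounds, taken against the higher of the probe's own value and the lowest signal well above background on that array, Cfd lay below the p53 tumour by at least 2.48-fold for LSD1 tumour 2 and at least 2.5-fold for LSD1 tumour 3, and by at least 1.41-fold and 1.42-fold with the other probe. With normexp background correction the differences were -1.17 and -1.16 log2, below the bounds of the brighter probe (1.31 and 1.32 log2). The 9 adipocyte markers did not share an order, and summed to 5.96 and 4.58 in LSD1 tumours 2 and 3, against 3.34 in the p53 tumour. Among them Fabp4, a fatty acid carrier also found in endothelium and macrophages, exceeded the p53 tumour by 7.12-fold and 2.45-fold in LSD1 tumours 2 and 3. Adipoq, the adiponectin gene, was above background in LSD1 tumour 2 alone (0.317), Car3 and Retn in the p53 tumour alone, and Plin1 and Cidec in none. The part of adipocytes in the Cfd values was not tested.

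The probe of C3ar1 was not well above background on any array. Its scaled signal was 0.014 and 0.015 in LSD1 tumours 2 and 3, against 0.012 in the p53 tumour, and no fold is given. A difference in this gene was not detectable at this signal.

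Of the component genes, only Cfd lay at least 2-fold from the p53 tumour with a sign shared by LSD1 tumours 2 and 3. C3 and C4b also lay at least 2-fold from it in each LSD1 tumour, but with opposite signs. The counts below are set beside the shares of all genes. In total, 8 of the 9 genes could be tested among 15240 genes above background on at least 1 array, and 7 were above background on all 3. Both LSD1 tumours were at least 2-fold above the p53 tumour for 0 of the 8 genes (3.48% of all genes tested), and at least 2-fold below it for 1, Cfd (5.38% of all genes). Taking LSD1 tumour 2 by itself, C3 was at least 2-fold higher (11.7% of all genes) and C4b and Cfd at least 2-fold lower (11.5%). In LSD1 tumour 3, C1qb and C4b were at least 2-fold higher (15.2%) and C3 and Cfd at least 2-fold lower (11.5%). The C3 pattern, 2-fold up for LSD1 tumour 2 and 2-fold down for LSD1 tumour 3, was met by 0.886% of all genes, and the C4b pattern, its reverse, by 0.669%. LSD1 tumour 3 exceeded LSD1 tumour 2 by 2-fold or more for C1qb and C4b (14% of all genes) and was exceeded for C3 (11.1%). The 8 genes had median differences of -0.03 log2 in LSD1 tumour 2 and 0.20 in LSD1 tumour 3, against 0.05 and 0.16 over all genes tested. Their median absolute differences were 0.19 log2 in LSD1 tumour 2 and 0.86 in LSD1 tumour 3, against 0.52 and 0.59 over all genes. With 1 tumour on each side, none of these counts carries a test, and the differences of both LSD1 tumours share the p53 array.

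The genotype test called none of them. In limma, with Benjamini-Hochberg adjustment over all 15240 genes, 0 complement component genes passed an adjusted p of 0.05, as did 0% of all genes tested, and 1 of the 8 (Cfd) had an unadjusted p under 0.05, against 568 of all genes. The fitted difference of LSD1 from p53 was 0.34 ± 0.57 log2 for C1qa (SE, n = 2 against 1), 0.70 ± 0.69 for C1qb, 0.19 ± 0.59 for C1qc, 0.36 ± 1.43 for C3 and -0.01 ± 1.26 for C4b. It was 0.02 ± 0.51 log2 for Cfb and -0.27 ± 0.51 for Cfp. Adjusted p-values from limma lay between 0.967 and 0.999. For Cfd the fit gave -3.54 ± 0.49 log2 (limma, adjusted p = 0.967), a value that rests on background-level readings in both LSD1 tumours. With 1 residual degree of freedom in the fit, the SD between the LSD1 tumours was 1.99 log2 for C3 and 1.72 for C4b, against 0.47 for C1qa, 0.25 for Cfb and 0.27 for Cfp. For C3 and C4b the mean over the LSD1 tumours therefore lies near the p53 tumour although neither LSD1 tumour does.

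The rest of the pathway was followed in 44 further genes, of which 34 were tested and 10 were not above background on any array (Masp1, Mbl1, Mbl2, Colec10, C8a, C8b, C4bp, Vtn, Cpn2 and Vsig4). By limma, as over all genes, none of the 34 passed the adjusted threshold. Both LSD1 tumours were at least 2-fold above the p53 tumour for 0 of the 34 (3.48% of all genes tested), and at least 2-fold below it for 3 (5.38%), namely Cd55, Cd46 and Cr2. Cd46, a membrane cofactor gene, was at background in both LSD1 tumours, so its bounds are only at least 1.13-fold and 1.14-fold lower. The medians of the 34 were -0.28 log2 in LSD1 tumour 2 and 0.18 in LSD1 tumour 3, against 0.05 and 0.16 over all genes tested.

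The 11 tested genes of classical and lectin pathway proteases and recognition molecules, C2 and C4a included, had medians of -0.44 log2 in LSD1 tumour 2 and -0.41 in LSD1 tumour 3. C1s1, a serine protease of the C1 complex, lay below the p53 tumour by 1.52-fold and 1.33-fold in LSD1 tumours 2 and 3, and its near copy C1s2 by 1.46-fold and 1.52-fold. C1ra, the protease that activates it, was 1.17-fold lower and 1.25-fold higher. Among lectin pathway genes, Fcna, the ficolin of spleen and liver macrophages, had 10.7 and 7.87 in LSD1 tumours 2 and 3, against 10.6 in the p53 tumour. Colec11, a soluble collectin, was 1.29-fold and 2.16-fold higher in LSD1 tumours 2 and 3, and Fcnb, the ficolin of myeloid cells, 1.39-fold and 1.66-fold higher. Masp2, a lectin pathway protease, was 2.24-fold above the p53 tumour in LSD1 tumour 2 by 1 probe and at background in LSD1 tumour 3, and its other 2 probes were above background on no array.

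In the terminal pathway, Hc stood apart in LSD1 tumour 2. Hc, which encodes C5, read 0.554 there and was not well above background at 0.016 in LSD1 tumour 3, nor at 0.016 in the p53 tumour. That is at least 10.4-fold above the p53 tumour for LSD1 tumour 2, by the gene's only named probe. C7, a component of the membrane attack complex, was higher by 1.24-fold and 1.90-fold in LSD1 tumours 2 and 3, and C6 was lower by 1.35-fold and 1.02-fold. C9, the pore-forming subunit, was above background in LSD1 tumour 3 alone, at least 1.54-fold above the p53 tumour, and C8g was higher by 1.18-fold and 1.47-fold in LSD1 tumours 2 and 3.

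Among regulators, the membrane inhibitors Cd55 and Cd55b were lower in both LSD1 tumours. Cd55, decay accelerating factor, had a scaled signal of 1.03 and 2.7 in LSD1 tumours 2 and 3, against 7.63 in the p53 tumour, and was 7.39-fold and 2.83-fold lower. With its other 2 probes the deficit was 5.98-fold and 6.99-fold for LSD1 tumour 2, and 1.92-fold and 2.54-fold for LSD1 tumour 3. Cd55b, a close copy of Cd55, was 7.39-fold and 1.77-fold lower by its brighter probe and 4.32-fold and 2.15-fold lower by the other, and readings of the pair are not independent. Cd59a and Cd59b, inhibitors of the membrane attack complex and also close copies, were at -0.15 and -0.64 log2 in LSD1 tumour 2 and at 1.21 and 1.25 in LSD1 tumour 3. Cr1l (Crry), the broad C3 convertase inhibitor of rodents, was at -0.13 log2 in LSD1 tumour 2 and 0.38 in LSD1 tumour 3. Of the secreted regulators, Clu (clusterin) was 1.49-fold and 3.75-fold lower, and Serping1, the C1 inhibitor, was 1.26-fold lower and 1.06-fold higher in LSD1 tumours 2 and 3. Cfi, encoding factor I, was at least 2.7-fold above the p53 tumour in LSD1 tumour 2, and Cpn1, a carboxypeptidase that trims C3a and C5a, at least 3.45-fold above it in LSD1 tumour 3, each not above background in the p53 tumour.

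Among receptors, the C3 fragment receptor of B cells and follicular dendritic cells stood lowest. Cr2 had a scaled signal of 2.03 and 0.242 in LSD1 tumours 2 and 3, against 39.5 in the p53 tumour, and its other 2 probes were also lower in both, by 15.0-fold and 15.3-fold in LSD1 tumour 2 and by at least 93.3-fold and by 81.3-fold in LSD1 tumour 3. The 7 B cell markers summed to 37.8 and 141 in LSD1 tumours 2 and 3, against 227 in the p53 tumour. All 6 of them above background on all 3 arrays were lowest in LSD1 tumour 2, unlike Cr2, and highest in the p53 tumour. That order was held by 13.9% of all genes above background on all 3. The other B cell marker, Fcer2a, encodes the low-affinity IgE receptor of follicular B cells. It had 1.94 in LSD1 tumour 2, against 7.59 in the p53 tumour, and was not well above background in LSD1 tumour 3. That is the order of Cr2. Cxcl13, the chemokine gene of B cell follicles, kept in the stromal list, had 0.617 and 0.460 in LSD1 tumours 2 and 3, against 8.83 in the p53 tumour, also the order of Cr2. The order of Cr2 was held by 4 of the 8 stromal markers above background on all 3 arrays, Cxcl13 among them. It was held by 12.5% of all genes above background on all 3. None of the 7 dendritic cell markers is a marker of follicular dendritic cells. They had medians of -2.68 log2 in LSD1 tumour 2 and -0.62 in LSD1 tumour 3. Of the 7, 3 were at least 2-fold below the p53 tumour in both (5.38% of all genes tested). Their summed scaled signal, nearly all of it Siglech, was 138 and 126 in LSD1 tumours 2 and 3, against 161 in the p53 tumour. The part of these cells in the Cr2 values was not tested. Itgax, the alpha chain of complement receptor 4, lay below the p53 tumour by 1.88-fold and 1.95-fold in LSD1 tumours 2 and 3, and Itgam, that of complement receptor 3, was 1.14-fold higher and 1.41-fold lower. Their shared beta chain gene Itgb2 was 1.05-fold lower and 1.25-fold higher, and C5ar2, a receptor of C5a, 1.07-fold and 1.20-fold higher. C5ar1, the signalling receptor of C5a, was dim, at 0.048 (not well above background) and 0.094 in LSD1 tumours 2 and 3, against 0.077 in the p53 tumour.

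**Figure D4:**
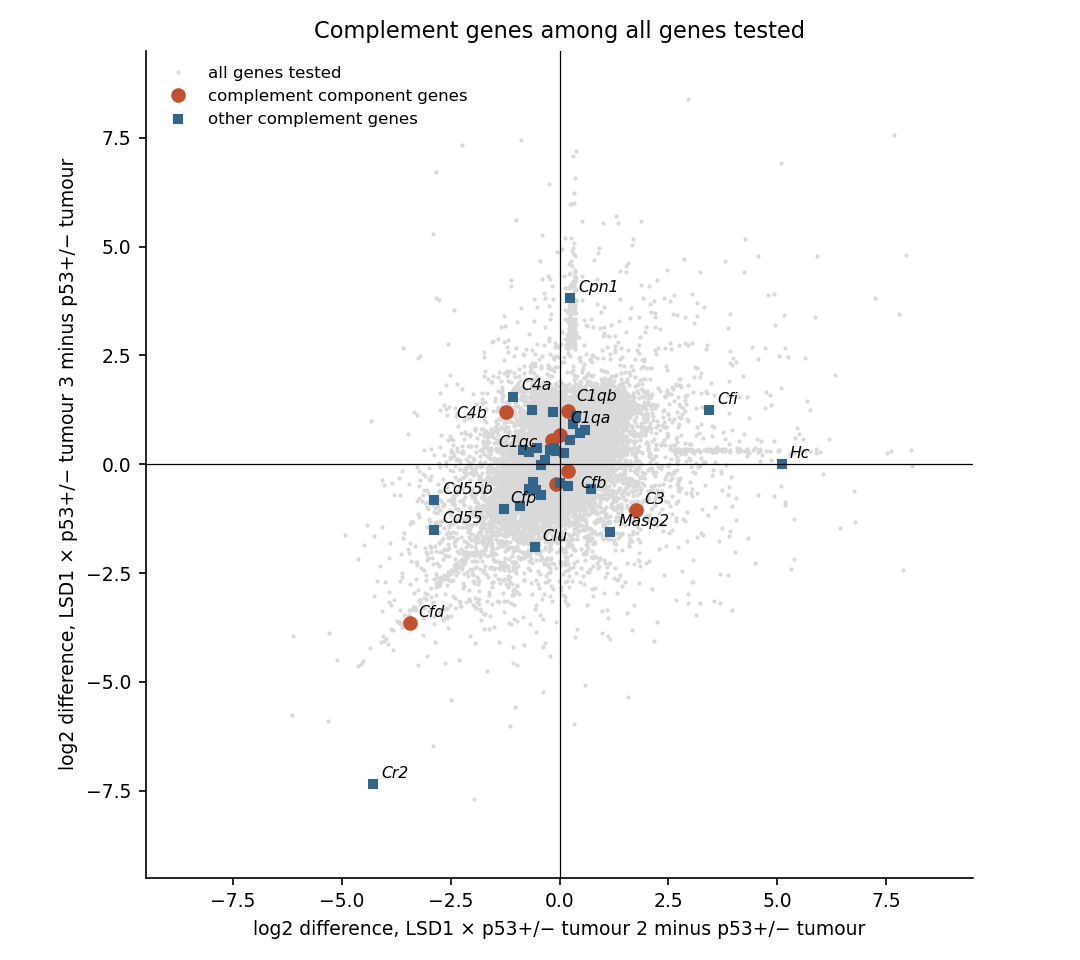
Log2 difference from the p53 tumour in LSD1 tumour 2 (horizontal axis) and in LSD1 tumour 3 (vertical axis) for 8 complement component genes (circles), 34 other complement genes (squares) and all 15240 genes tested (dots), values at background included. C3 and C4b lie in opposite quadrants, Cfd and Cr2 lie low in both tumours, and Hc and Cpn1 each depart in 1 tumour.

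**Figure D5:**
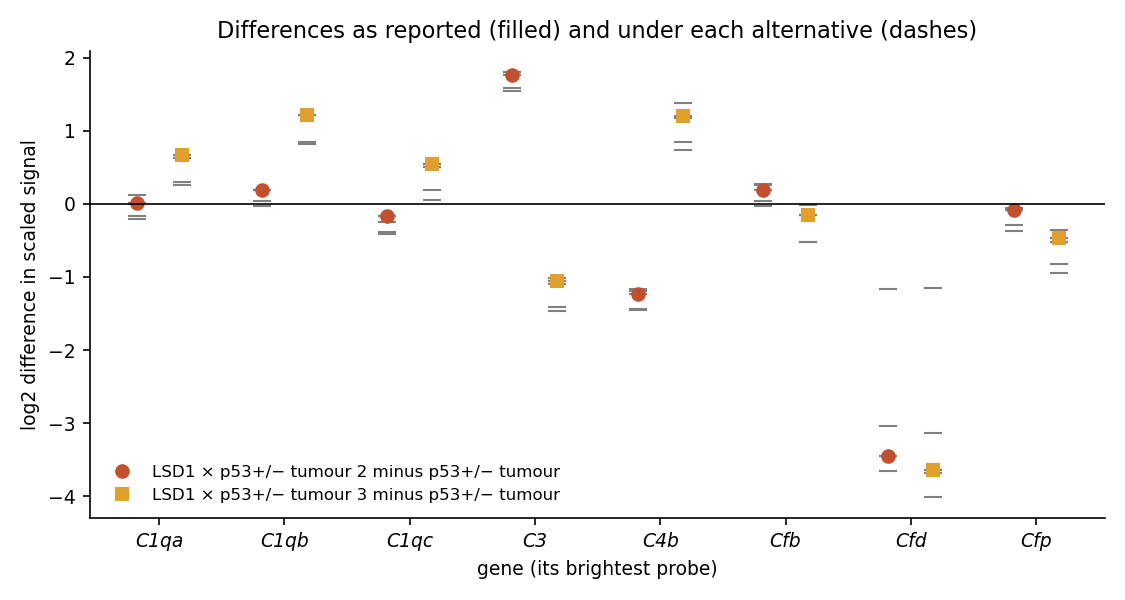
Log2 difference from the p53 tumour of the 8 tested complement component genes, each by its brightest probe, as reported (filled points, circles for LSD1 tumour 2 and squares for LSD1 tumour 3) and under each alternative setting (dashes). C3 and C4b keep their opposite signs under every setting drawn, while C1qa, C1qb and Cfb in LSD1 tumour 2 lie on both sides of 0.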

How the data were processed

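Scanner files from 3 arrays were used. Their intensity values, the processed signals, had been background-subtracted and detrended within the array with Agilent Feature Extraction 11.5.1.1 before the authors deposited them, per the file headers. The authors' deposited value table holds the same intensity values times 1 factor per array (0.779, 0.902 and 1.06 for LSD1 tumour 2, LSD1 tumour 3 and the p53 tumour). What the factors were set on is not given in the sources used here, and the column medians were 54.2, 43.5 and 64.2.

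Each processed signal was divided by the 75th percentile of its array's non-control spots and log2-transformed; spots flagged as outliers were dropped and repeat spots averaged. Probes were named through RefSeq accessions (assembly GRCm38.p6), which matched 32994 of 56605 probes and left 23611 unnamed. The array's design build is mm9, so the coordinates printed belong to the RefSeq sequences only. Each gene was represented by its brightest probe. A gene entered the test if 1 or more arrays had that probe well above background. R 4.3.3 and limma 3.58.1 were used (moderated fit by eBayes, Benjamini-Hochberg adjustment over all genes, 3.27 total degrees of freedom), which assumes for the p53 tumour the spread seen between the LSD1 tumours. The p-values measure only the spread between these samples. Tumours were also compared by size with no test, with the brighter side above background.

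The members and lists were chosen with earlier results of these data known. The named genes were all members with every probe, measured genes of the pathway list, up to 3 genes per marker list, taken by the size of the mean difference, and the 5 genes nearest to the C1q pattern. Other genes named were chosen after their values were seen. Alternatives were normexp with an offset of 50 (on the median spot signal, since no mean signal was used here), quantile normalization, the deposited value table, other filters on dim probes, the mean of a gene's probes, slide as a block, and leaving out each LSD1 tumour. Some genes of the lists are counted in list totals but not reported here by name.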

Additional observations from a re-analysis of the deposited data

How the results depend on the processing

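No result passed limma's adjusted threshold under any of the 6 alternatives that allow a test. The signs of C3 and C4b in each LSD1 tumour were kept under all 6, of which the filters on dim probes cannot change them. With quantile normalization the mean difference over the LSD1 tumours turned for C1qc (-0.18 log2) and Cfb (-0.24), and in the deposited value table likewise (-0.10 and -0.27). There the median of all genes was -0.16 in LSD1 tumour 2 and -0.20 in LSD1 tumour 3, against 0.05 and 0.16 as reported. For C4b, whose mean difference is -0.01, the sign turned with normexp (0.0025) and with the mean of its probes (0.097). Genes at least 2-fold higher and lower in both LSD1 tumours numbered 323 and 394 with normexp and 219 and 1266 in the deposited value table, against 531 and 820. Above background on all 3 arrays, 416 genes were lower, and 0 complement component genes, since Cfd drops out by construction. Of the other complement genes 5 were 2-fold lower in both in the deposited value table, against 3.

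With slide as a block the values are those of LSD1 tumour 3 against the p53 tumour, with no test: C3 was at -1.05, C4b at 1.21 and Cfb at -0.16 log2, 2 complement component genes were 2-fold higher and 2 lower, 5 other complement genes were higher and 5 lower, and 2321 genes were higher and 1749 lower. Leaving out either LSD1 tumour gave between 1 and 2 component genes higher and 2 lower, between 3 and 5 other complement genes higher and 5 lower, and between 1777 and 2321 genes higher and between 1749 and 1750 lower. Without LSD1 tumour 2 or 3, C1qc lay between -0.16 and 0.55 log2, C3 between -1.05 and 1.77, C4b between -1.23 and 1.21 and Cfb between -0.16 and 0.19. The cause of these shifts was not tested. No paired analysis was possible because the groups share no replicate number. Probes near background, Cfd and C3ar1 among them, are limited by signal over background.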
